A study of Mus musculus with 6 samples.

Results

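The IL-6 family genes described here are 10 of the 55416 genes in the deposited expression table of primary mouse chondrocytes, the cells that build and maintain cartilage matrix. They were chosen by gene name as 3 ligands (Il6, Il11 and Lif), 5 receptor chains (Il6ra, Il11ra1, Il6st, Osmr and Lifr), the transcription factor Stat3 and its feedback inhibitor Socs3. The choice was made with the values of the siPKM2 and siNC libraries already known, so the fold changes and adjusted p-values of these 10 genes are given as a description of the fit across all genes and not as independent evidence. All 10 were found in the table and all 10 passed the filter on low counts, Il6 with only 3 counts in siNC replicate 1.

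The study sequenced RNA from cells labelled as primary chondrocytes of neonatal mouse knee joints. The cells received a negative control siRNA (siNC, labelled WT, n = 3 libraries) or an siRNA labelled as against PKM2 (siPKM2, n = 3 libraries). PKM2 is the M2 splice form of pyruvate kinase, and the counts used here do not separate splice forms. An siRNA is a short double-stranded RNA that directs the cleavage of a matching transcript, and pyruvate kinase catalyses the last step of glycolysis. The stated purpose was to learn what PKM2 does in chondrocytes. Both groups were grown in DMEM/F12 medium with serum, and no cytokine treatment is named for these cells. The labels of the siPKM2 libraries disagree among themselves, because the titles name siPKM2 in all 3 whereas the genotype field names PKM2 only in replicate 1 and other PKM numbers in replicates 2 and 3. The supplementary methods describe chondrocytes from mice older than neonates, and the supplement says that 1 of 3 siRNAs against Pkm2 was selected, without saying that the sequenced libraries received it. Strain and sex are not given in the labels, and although the methods state in general that experiments were repeated independently, no source says which culture or animal each library came from, so the p-values measure only the spread between these samples, which may be technical.

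IL-6 family cytokines signal through receptor complexes that share the chain gp130, the product of Il6st. IL-6 and IL-11 first bind their own alpha receptors, encoded by Il6ra and Il11ra1, and the resulting complex pairs 2 gp130 chains, whereas LIF pairs gp130 with the LIF receptor and oncostatin M pairs it with the oncostatin M receptor encoded by Osmr. Janus kinases bound to the chains then phosphorylate STAT3, which enters the nucleus and induces, among other genes, Socs3, whose product binds gp130 and shuts the signal off. In cartilage, IL-6 is known as a cytokine of inflamed joints that lowers matrix synthesis, and LIF and IL-11 are made by chondrocytes exposed to inflammatory stimuli. Phosphorylation of STAT3 and secreted protein were not measured here, and in a bulk sample fewer cells of a type and less RNA per cell cannot be told apart.

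The promoter windows of the 3 ligands and of Socs3 are printed because these 4 genes are the signal and the feedback end of the pathway. RefSeq windows from 250 bases before to 50 after a transcript start, on GRCm38.p6, were found for all 10 genes, with 13 windows in all. Each window is written 5′ to 3′ on the gene's strand, and capitals mark matches to the motifs searched on both strands. The motifs were TTCNNNGAA for STAT factors, TGANTCA for AP-1, GGGNNTTTCC for NF-kappaB and GAAANNGAAA for the core of the interferon response element. The windows are Il6 at chr5:30012864-30013163 on the plus strand, Lif at chr11:4257318-4257617 on the plus strand, Il11 at chr7:4778092-4778391 on the minus strand and Socs3 at chr11:117969317-117969616 on the minus strand.
Il6: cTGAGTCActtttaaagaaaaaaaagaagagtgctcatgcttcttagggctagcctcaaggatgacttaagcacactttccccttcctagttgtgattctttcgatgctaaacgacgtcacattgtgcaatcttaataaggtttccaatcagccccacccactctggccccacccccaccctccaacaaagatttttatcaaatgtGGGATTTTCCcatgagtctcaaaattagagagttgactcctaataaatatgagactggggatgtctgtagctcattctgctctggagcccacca
Lif: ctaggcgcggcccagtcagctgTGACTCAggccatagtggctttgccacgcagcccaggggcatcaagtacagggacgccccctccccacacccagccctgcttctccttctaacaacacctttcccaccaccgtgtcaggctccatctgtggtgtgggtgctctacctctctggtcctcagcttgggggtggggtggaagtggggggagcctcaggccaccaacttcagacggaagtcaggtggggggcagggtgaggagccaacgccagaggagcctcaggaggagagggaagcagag
Il11: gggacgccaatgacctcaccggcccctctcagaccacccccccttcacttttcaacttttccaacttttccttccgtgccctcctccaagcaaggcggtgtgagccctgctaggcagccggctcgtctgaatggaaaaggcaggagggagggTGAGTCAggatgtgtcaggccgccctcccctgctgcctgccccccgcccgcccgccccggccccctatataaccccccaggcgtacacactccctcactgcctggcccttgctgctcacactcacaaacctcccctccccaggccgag
Socs3: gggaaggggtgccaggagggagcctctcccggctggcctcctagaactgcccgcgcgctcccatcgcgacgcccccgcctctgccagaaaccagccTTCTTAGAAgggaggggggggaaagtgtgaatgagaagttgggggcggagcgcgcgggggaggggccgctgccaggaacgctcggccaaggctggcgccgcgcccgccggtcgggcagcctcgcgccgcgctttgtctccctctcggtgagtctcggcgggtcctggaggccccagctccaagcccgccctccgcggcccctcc
The Il6 window held an AP-1 match starting 249 bases before the transcript start and an NF-kappaB match (GGGATTTTCC) 44 bases before it. The Lif window held an AP-1 match 228 bases before the start, and this Il11 window, 1 of 2 for the gene, held one 98 bases before it. Socs3 held the only STAT match among the 13 windows, TTCTTAGAA, 154 bases before the RefSeq start. The printed Socs3 and Il11 windows lie inside the genes as GENCODE places them, for Socs3 at chr11:117966079-117970047. The RefSeq starts used for these windows are thus not the outermost starts in GENCODE. The other match was an AP-1 sequence 3 bases after the start of Osmr, and no member window held the interferon motif. Among all 32851 promoter windows, 8.3% held the STAT motif, 7.81% the AP-1 motif, 1.63% the NF-kappaB motif and 3.44% the interferon motif. A match describes the letters of the window and does not show that a factor binds there.

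Each library held between 22317065 and 25691096 estimated counts, and levels are given as CPM (counts scaled to a common library size) or, between genes, as the authors' TPM, in which counts are also divided by transcript length. The targeted gene Pkm, counted over all splice forms together, lay at 2335, 2746 and 1674 CPM in siNC replicates 1 to 3 and at 336, 541 and 309 CPM in siPKM2 replicates 1 to 3, with no overlap. Its log2 fold change was -2.51 ± 0.33 (SE) with an adjusted p of 0.0738, and a fit with the replicate numbers as blocks gave -2.53 with an adjusted p of 0.00932. The replicate 2 libraries stood apart from the others: the first principal component held 54.2% of the variance and placed them at 55.8 (siNC) and 66.3 (siPKM2), with the other 4 libraries below 0. All 10 chondrocyte markers, such as Col2a1 and Acan, were lower in replicate 2 than in replicates 1 and 3 of both groups, and their summed level was 10122 CPM in siNC replicate 2 and 14147 CPM in siPKM2 replicate 2 against a range of 40908 to 48042 CPM in the other 4 libraries. The summed level of 10 macrophage markers was 6.92 to 74.3 CPM in siNC and 11.2 to 60.6 CPM in siPKM2, highest in replicate 2 of each group. Of these, only Csf1r, Cd68, Cd14 and Mrc1 passed the filter, and the defining markers Ptprc, Adgre1, Itgam, Tyrobp, C1qa and C1qb had at most 10 counts in any library. Endothelial markers summed to at most 1.29 CPM in siNC and 2.06 CPM in siPKM2, osteoblast markers to 33.7 to 423 CPM and 43.2 to 170 CPM, and fibroblast markers to 187 to 371 CPM and 218 to 408 CPM. With the block, single markers passed at an adjusted p under 0.05. Prg4 (lubricin, in the fibroblast list) and Cd14 rose, at log2 fold changes of 2.15 (adjusted p of 0.0271) and 1.35 (adjusted p of 0.0432). The chondrocyte marker Matn3 rose, at 0.86 (adjusted p of 0.0206), and the osteoblast marker Ibsp fell, at -1.45 (adjusted p of 0.0278). Of the other fibroblast markers tested, Dpp4 was at 1.07, Thy1 at -0.92 and Pdgfra at -0.38, and none of them passed. Over all genes tested, 12.3% passed as higher and 10.8% as lower. The 10 interferon-response genes summed to 27.4, 1915 and 46.2 CPM in siNC replicates 1 to 3 and to 1023, 3481 and 779 CPM in siPKM2 replicates 1 to 3. The part of these differences in the IL-6 family values was not tested.

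Il6, Il11 and Lif were each higher in the siPKM2 library than in the siNC library of the same number in all 3 pairs, and for Il6 and Lif replicate 2 was the highest library of both groups. Il6 (ENSMUSG00000025746, chr5:30013114-30019981, plus strand) lay at 0.12, 38.6 and 0.482 CPM in siNC replicates 1 to 3 and at 6.01, 96.3 and 8.36 CPM in siPKM2 replicates 1 to 3. The siNC value of replicate 2 was thus above the siPKM2 values of replicates 1 and 3, and the groups overlapped. Behind these values stood 3, 955 and 11 estimated counts in siNC and 129, 2475 and 183 in siPKM2. The ratio of the paired CPM values was 50.1 in pair 1, with a counting interval (95%) of 16.8 to 246, 2.49 in pair 2, with an interval of 2.31 to 2.69, and 17.4 in pair 3, with an interval of 9.48 to 35.4. These intervals cover counting error only, and the interval of pair 2 does not meet those of the other two pairs. The mean was 13.1 ± 22.1 CPM in siNC and 36.9 ± 51.5 CPM in siPKM2 (SD, n = 3 each).

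In edgeR's quasi-likelihood test without the block, the log2 fold change of Il6 was 1.5 ± 1.92 (SE), smaller than its error, with an adjusted p of 0.746. With the block, which compares the libraries within each number, it was 2.62 ± 0.66 with an adjusted p of 0.0426. The unblocked estimate depended on the replicate 2 libraries: it was -0.86 without siPKM2 replicate 2 and 6.94 without siNC replicate 2, and with both left out it was 4.57 with an adjusted p of 0.0327.

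Il11 (ENSMUSG00000004371, chr7:4772373-4782859, minus strand), a gp130 cytokine of stromal cells, lay at 0.601, 4.33 and 0.438 CPM in siNC replicates 1 to 3 and at 10.7, 7.9 and 4.34 CPM in siPKM2 replicates 1 to 3. The groups did not overlap, but the margin was narrow, with 4.34 CPM in siPKM2 replicate 3 against 4.33 CPM in siNC replicate 2. The paired ratios were 17.9 (10.6 to 32.4), 1.82 (1.44 to 2.33) and 9.92 (5.16 to 21.3), and here too the interval of pair 2 lay below those of pairs 1 and 3. The log2 fold change was 2.09 ± 0.91 (SE) with an adjusted p of 0.301, and with the block it was 2.54 ± 0.67 with an adjusted p of 0.0484. Without siNC replicate 2 the unblocked value was 3.87 with an adjusted p of 0.0509, and without both replicate 2 libraries it was 3.83 with an adjusted p of 0.037.

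Lif (ENSMUSG00000034394, chr11:4257557-4272514, plus strand), the leukemia inhibitory factor, lay at 5.69, 50.6 and 1.44 CPM in siNC replicates 1 to 3 and at 21.8, 89.7 and 7.13 CPM in siPKM2 replicates 1 to 3. The order of the replicates, 2 above 1 above 3, was the same in both groups, and the groups overlapped. The paired ratios of 3.83, 1.77 and 4.93 were closer to each other than those of Il6 or Il11. The fitted difference for Lif was 1.04 ± 1.36 (SE) on the log2 scale with an adjusted p of 0.753, and with the block it was 1.56 ± 0.29 with an adjusted p of 0.0224. Without siPKM2 replicate 2 the unblocked estimate was -0.41, and without siNC replicate 2 it was 3.47. With both replicate 2 libraries left out it was 2.0 with an adjusted p of 0.186, which did not pass.

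**Figure D1:**
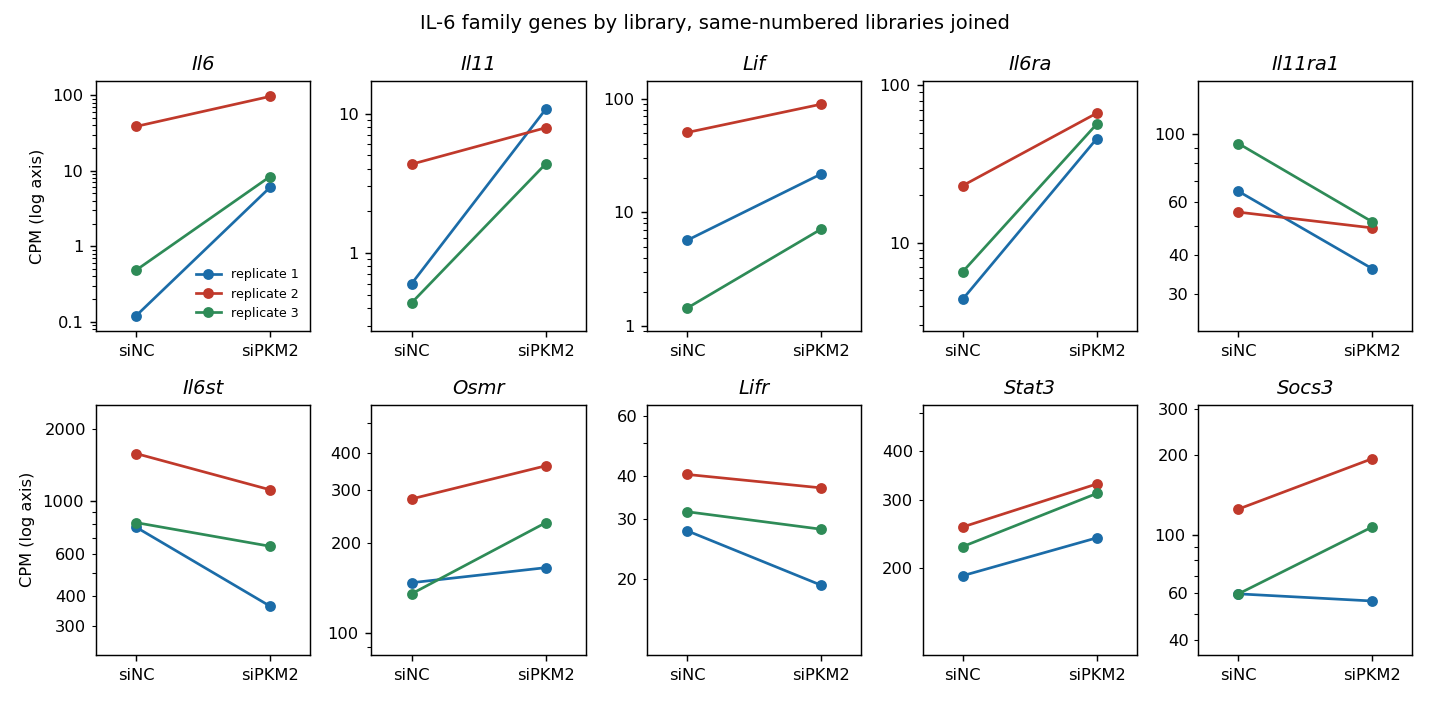
CPM of the 10 genes in each library on log axes whose ranges differ between panels; each point is 1 library and lines join the siNC and siPKM2 libraries of the same number. For Il6, replicate 2 (38.6 and 96.3 CPM) lies above replicates 1 and 3 in both groups, whereas all 3 lines of Il6, Il11, Lif and Il6ra slope upward.

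The alpha receptors differed in opposite directions: Il6ra was higher in siPKM2 and Il11ra1 lower, and neither had overlapping groups. Il6ra (ENSMUSG00000027947, chr3:89864059-89913196, minus strand), which encodes the chain that binds IL-6, lay at 4.4, 23.1 and 6.57 CPM in siNC replicates 1 to 3 and at 45.8, 66.5 and 56.7 CPM in siPKM2 replicates 1 to 3. The 3 siPKM2 values lay close together, at 56.3 ± 10.3 CPM (SD, n = 3), and the lowest of them was above the highest siNC value; the siNC mean was 11.4 ± 10.2 CPM. The paired ratios were 10.4, 2.87 and 8.63. The log2 fold change was 2.31 ± 0.63 (SE) with an adjusted p of 0.161, 2.62 ± 0.39 with an adjusted p of 0.0156 with the block, and 2.32 with an adjusted p of 0.00357 in DESeq2's Wald test. Without siNC replicate 2 the unblocked value was 3.36 with an adjusted p of 0.0345, and without both replicate 2 libraries it was 3.22 with an adjusted p of 0.0166. Over the alternatives run, Il6ra was called in 5, more than any other of the 10 genes.

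Il11ra1 (ENSMUSG00000073889, chr4:41699989-41769474, plus strand), the alpha receptor of IL-11, lay at 64.8, 55.4 and 92.8 CPM in siNC replicates 1 to 3 and at 36.2, 49.2 and 51.5 CPM in siPKM2 replicates 1 to 3. Every siPKM2 value was below every siNC value, with paired ratios of 0.558, 0.889 and 0.556. The fitted difference for Il11ra1 was -0.64 ± 0.24 (SE) on the log2 scale with an adjusted p of 0.242, and with the block it was -0.62 ± 0.16 with an adjusted p of 0.0433. The gene has a near-copy, Il11ra2, which shares 45.0% of the 31-base words of the Il11ra1 transcript; Il11ra2 itself was given at most 5 estimated counts in any library, and how reads common to both were divided is not known. Il11 and its receptor had opposite signs in all 3 pairs.

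The signalling chains are encoded by Il6st, Osmr and Lifr. Il6st (ENSMUSG00000021756, chr13:112464070-112510086, plus strand), which encodes gp130, lay at 776, 1577 and 811 CPM in siNC replicates 1 to 3 and at 363, 1113 and 646 CPM in siPKM2 replicates 1 to 3. It was lower in each pair, with ratios of 0.467, 0.706 and 0.797, but siPKM2 replicate 2 was above siNC replicates 1 and 3, so the groups overlapped. The fitted difference for Il6st was -0.58 ± 0.48 (SE) on the log2 scale with an adjusted p of 0.585, and with the block it was -0.64 ± 0.17 with an adjusted p of 0.0473.

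Osmr (ENSMUSG00000022146, chr15:6813577-6874969, minus strand), the signalling chain for oncostatin M, lay at 147, 280 and 135 CPM in siNC replicates 1 to 3 and at 165, 361 and 233 CPM in siPKM2 replicates 1 to 3. It was higher in each pair, by ratios of 1.12, 1.29 and 1.73, and the adjusted p was 0.621, or 0.07 with the block, so it passed in neither fit. Lifr (ENSMUSG00000054263, chr15:7090614-7197489, plus strand), the LIF receptor chain, lay at 27.7, 40.5 and 31.5 CPM in siNC replicates 1 to 3 and at 19.2, 37 and 28 CPM in siPKM2 replicates 1 to 3. Its log2 fold change was -0.24 ± 0.28 (SE), with an adjusted p of 0.709, or 0.137 with the block. The direction of Lifr depended on the unit, because its paired ratios were 0.694, 0.916 and 0.889 in CPM but 0.39, 2.13 and 1.45 in the authors' TPM. No other of the 10 genes had a fold change whose sign differed between the CPM fit and the TPM fit.

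Set against gp130 within each library, Il6ra and Osmr both took a larger share in siPKM2. This ratio, chosen after the values were seen and given without a test, is the TPM of a receptor chain as a percent of the TPM of Il6st. For Il6ra it was 0.807, 1.97 and 1.21% in siNC replicates 1 to 3 and 16.8, 8.44 and 12.5% in siPKM2 replicates 1 to 3. For Osmr it was 30.8, 32.2 and 28.2% in siNC and 70.3, 54.2 and 61.3% in siPKM2, in the same order of replicates. Neither gene's groups overlapped on this scale, although the Osmr groups overlapped in CPM. The share of all genes tested whose groups would not overlap when divided by Il6st was not worked out. The Il11ra1 ratio was 44.4, 15.9 and 55.7% in siNC and 47.8, 21 and 36.4% in siPKM2, and the Lifr ratio was 6.98, 2.23 and 4.4% in siNC and 5.63, 7.24 and 8.54% in siPKM2. Both of these overlapped between the groups. A ratio to Il6st rises when Il6st falls, and Il6st was lower in siPKM2 in every pair.

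**Figure D2:**
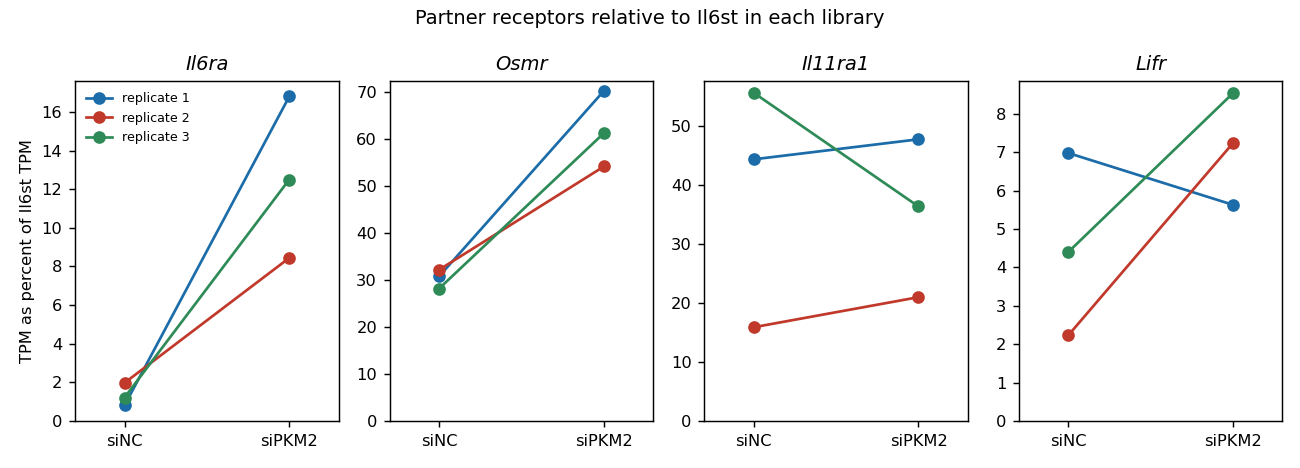
TPM of each receptor chain as a percent of Il6st TPM in the same library, on linear axes that start at 0 and differ in range; each point is 1 library and lines join libraries of the same number. Il6ra (0.807 to 1.97% in siNC, 8.44 to 16.8% in siPKM2) and Osmr (28.2 to 32.2% and 54.2 to 70.3%) do not overlap between the groups, whereas Il11ra1 and Lifr do. Il6st itself was lower in siPKM2 in every pair.

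Stat3 (ENSMUSG00000004040, chr11:100885098-100939540, minus strand), the transcription factor that gp130 activates, showed a small difference of similar size in each pair. It lay at 191, 255 and 227 CPM in siNC replicates 1 to 3 and at 239, 329 and 311 CPM in siPKM2 replicates 1 to 3. The ratios were 1.25, 1.29 and 1.37, and the groups overlapped only in that siPKM2 replicate 1 lay below siNC replicate 2. The log2 fold change was 0.38 ± 0.20 (SE) with an adjusted p of 0.369, and with the block it was 0.38 ± 0.08 with an adjusted p of 0.0306.

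Socs3 (ENSMUSG00000053113, chr11:117966079-117970047, minus strand), the feedback inhibitor of gp130, lay at 59.7, 125 and 59.7 CPM in siNC replicates 1 to 3 and at 56.1, 194 and 107 CPM in siPKM2 replicates 1 to 3. Pair 1 differed in direction from pairs 2 and 3, with ratios of 0.941, 1.55 and 1.79. The fitted difference for Socs3 was 0.55 ± 0.50 (SE) on the log2 scale with an adjusted p of 0.627, or 0.47 ± 0.19 with an adjusted p of 0.125 with the block. The other 9 genes had the same sign in all 3 pairs in CPM.

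Over the 10 genes, none was called without the block at the study's threshold (adjusted p under 0.05 and more than a 2-fold change), and the same fit called 0% of the 15269 genes tested. At an adjusted p under 0.05 with no minimum fold the unblocked fit passed 0% of genes, while 2690 genes had an unadjusted p under 0.05, among them Il6ra and Il11ra1. With the block, 4 of the 10 were called higher (Il6, Il11, Lif and Il6ra), against 2.65% of all genes tested, and 0 were called lower, against 3.18%. At an adjusted p under 0.05 alone the block passed 5 as higher, the same 4 genes and Stat3, against 12.3% of all genes, and 2 as lower, Il6st and Il11ra1, against 10.8%. DESeq2 called 1 of the 10, Il6ra, against 2.79% of 15419 genes with an adjusted p, and gave no p for Il6. The siPKM2 values lay wholly above the siNC values for 2 of the 10 genes, against 12% of all genes, and wholly below for 1, against 12.3%. Of the 10, 6 were higher in all 3 pairs (30.5% of all genes were) and 3 were lower in all 3 (30.6% of all genes). The median log2 fold change of the 10 was 0.49, or 0.45 with the block, beside -0.02 and -0.01 over all genes tested. Because the genes were picked with this contrast known, nothing is read from these shares. An exact permutation test of 3 libraries against 3 cannot give a two-sided p below 0.1.

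The calls with the block depended on which pairs were kept. With replicate 1 or replicate 3 left out, the blocked fit called 0 genes in all and none of the 10, and Il6ra had adjusted p-values of 0.0731 and 0.1. The blocked log2 fold changes kept their sign, from 2.12 to 2.28 for Il6, 1.81 to 2.28 for Il11, 1.35 to 1.36 for Lif, 2.27 to 2.39 for Il6ra, -0.80 to -0.42 for Il6st, -0.51 to -0.50 for Il11ra1 and 0.35 to 0.41 for Stat3. None of these 7 genes then had an adjusted p under 0.05; for Il11ra1 it was 0.191 without replicate 1 and 0.219 without replicate 3. With replicate 2 left out, the blocked fit called Il6, Il11, Lif and Il6ra among 1639 genes called in all, the most of any setting. In that order, the log2 fold changes were 4.61, 3.78, 2.06 and 3.23, with adjusted p-values of 0.000451, 0.000458, 0.000569 and 5.22e-05. Like the blocked fits without replicate 1 or 3, this fit was chosen after the data were seen.

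**Figure D3:**
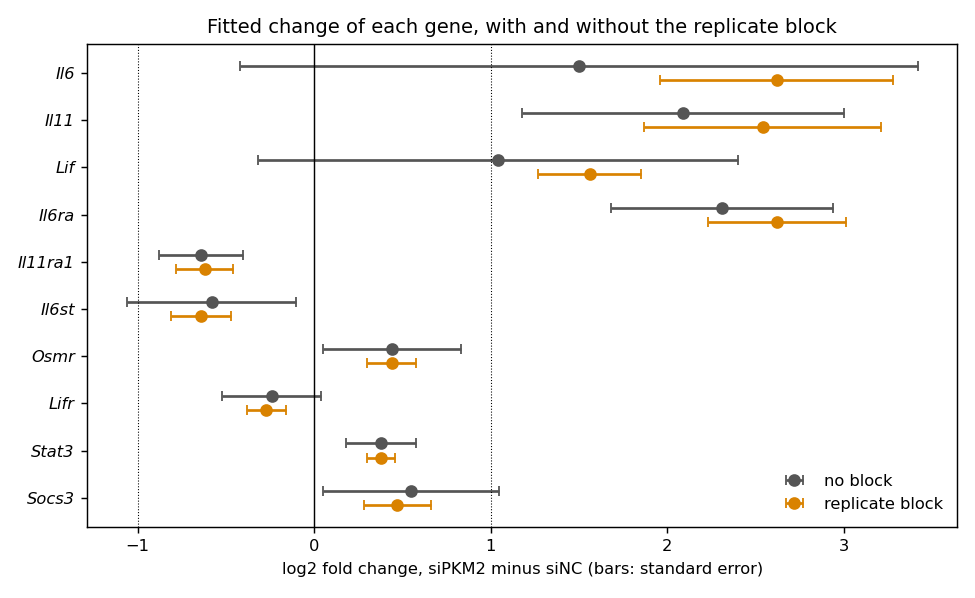
Log2 fold change of each gene (siPKM2 minus siNC) from edgeR without and with the replicate block. Points are estimates from 3 libraries per group, bars are standard errors worked out from the test's F statistic, and dotted lines mark a fold change of 2. The block leaves the estimates of Stat3 (0.38), Osmr (0.44) and Il11ra1 (-0.64 and -0.62) nearly in place and narrows every bar, most of all for Il6 (from 1.92 to 0.66) and Lif (from 1.36 to 0.29).

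The replicate 2 libraries carried most of the Il6 and Lif signal of their groups. Il6 in replicate 2 was 128 times the mean of replicates 1 and 3 in siNC and 13.4 times in siPKM2. For Lif the ratios were 14.2 and 6.21, for Il11 8.34 and 1.05, and for Il6ra 4.22 and 1.3. The ratio was thus smaller in siPKM2 for these 4 genes, and slightly smaller for Osmr and Stat3. It was not particular to the family: it was smaller for Isg15 (41.9 in siNC and 2.28 in siPKM2) and larger for Steap4 (17.6 and 31.4). The share of all genes tested with a smaller ratio was not worked out, and the difference between the groups in this ratio was not tested. Il6st (1.99 and 2.21), Osmr (1.99 and 1.81) and Socs3 (2.09 and 2.37) were about equally raised in both groups, and Stat3 (1.22 and 1.2), Lifr (1.37 and 1.57) and Il11ra1 (0.703 and 1.12) were near 1. Il6 and Lif were the members more than 2 times as high in replicate 2 as in each of replicates 1 and 3 in both groups, a pattern that 4.31% of all genes tested shared.

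The order of the 10 genes by TPM was similar in both groups at the top and changed in the middle. In siNC it was Il6st at 235 ± 114 TPM, Stat3 at 89.6 ± 19, Il11ra1 at 76.3 ± 22.3, Osmr at 72.4 ± 39.2, Socs3 at 55.9 ± 28.5, Il6 at 22 ± 37.2, Lif at 10.3 ± 14.4, Lifr at 9.05 ± 1.68, Il6ra at 3.55 ± 3.18 and Il11 at 1.7 ± 2.13 TPM (SD, n = 3). Of neighbours in that order, the library ranges were apart only for Il6st and Stat3 and for Lifr and Il6ra. In siPKM2 the order was Il6st at 151 ± 83.1 TPM, Stat3 at 112 ± 22.5, Osmr at 89 ± 38.7, Socs3 at 79 ± 48.8, Il6 at 61 ± 86, Il11ra1 at 45.4 ± 7.83, Lif at 18.1 ± 19.5, Il6ra at 16.7 ± 3.76, Lifr at 11.1 ± 6.56 and Il11 at 7.02 ± 2.93 TPM, and every pair of neighbours overlapped. The place of Il6 came from replicate 2: there it was at 160 TPM in siPKM2, above Il11ra1 at 50.4 and Osmr at 130, while in siPKM2 replicates 1 and 3 it was at 9.82 and 12.9 TPM.

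The genes whose levels followed Il6 most closely over the 6 libraries were Slfn2 (Pearson r = 0.9993), Sp110 (0.9991), Gbp6 (0.9988), Elf1 (0.9979) and Mt1 (0.9976), by the correlation of log2(CPM + 0.5). Slfn2 lay at 0.681, 36.2 and 1.09 CPM in siNC replicates 1 to 3 and at 8.06, 94.7 and 10.4 CPM in siPKM2 replicates 1 to 3, with replicate 2 the highest of each group. For Stat3 they were Clec2d (0.9896), A630001G21Rik (0.9843), Plekhm2 (0.9837), Ranbp10 (0.9826) and Ercc4 (0.9796). These coefficients describe 6 libraries that share their replicate numbers and were the highest of all genes tested, so they carry no p. Among the 10 genes, Il6 and Osmr had an r of 0.95, Osmr and Socs3 0.98, Il6st and Lifr 0.98, and Il11 and Il11ra1 -0.91.

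The other ligands and receptors of the family were mostly at the floor. Of 12 such genes, 10 did not pass the filter (Osm, Cntf, Ctf2, Il27, Ebi3, Il31, Cntfr, Il27ra, Il31ra and Il11ra2). Osm, the oncostatin M ligand, had 0 counts in all 6 libraries, which does not show that its RNA was absent. The 2 tested, Ctf1 and Clcf1, encode ligands, and neither passed with the block, at log2 fold changes of 0.14 and -0.09.

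Of 11 signal transducers, 2 rose with the block (Ptpn11 and Shc1), 0 fell, and the list's blocked median was 0.07; rose and fell here mean an adjusted p under 0.05, which 12.3% of all genes tested passed as higher and 10.8% as lower. None of the 11 was called at more than a 2-fold change. The adaptor Shc1 and the phosphatase Ptpn11 lead from gp130 to the MAP kinases. Their blocked values were 0.64 (adjusted p of 0.0142) and 0.56 (adjusted p of 0.0147). The siPKM2 values of both lay wholly above the siNC values, as did those of 12% of all genes tested. Grb2, the adaptor next to them, was at 0.25 with an adjusted p of 0.0734. Among the genes that did not pass were the Janus kinase genes Jak1, Jak2 and Tyk2, at 0.06, 0.07 and 0.34.

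Of 14 inhibitors and sheddases, 3 rose with the block (Ptpn1, Socs5 and Socs6) and 4 fell (Adam10, Adam17, Socs2 and Pias3), beside the same 12.3% and 10.8% of all genes, with a median of 0.01. At more than a 2-fold change 1 was called higher, Ptpn1, and 3 lower, Adam10, Adam17 and Socs2. Adam10 and Adam17 encode the membrane proteases that release the IL-6 receptor from the cell surface. Adam10 lay at 130, 98.5 and 134 CPM in siNC replicates 1 to 3 and at 40.1, 36.2 and 41.4 CPM in siPKM2 replicates 1 to 3. Adam17 lay at 76.8, 99.8 and 78.4 CPM in siNC and at 31.8, 49 and 36.1 CPM in siPKM2, in the same order. Both genes lay wholly lower in siPKM2, as did 12.3% of all genes tested. Replicate 2 was the lowest library of each group for Adam10 and the highest for Adam17. The blocked log2 fold changes were -1.61 ± 0.09 (adjusted p of 0.00932) for Adam10 and -1.14 ± 0.09 (adjusted p of 0.00942) for Adam17; without the block the adjusted p-values were 0.0738 and 0.104, and in DESeq2 2.27e-10 and 0.00185. Ptpn1, a phosphatase that acts on Janus kinases, had a blocked value of 1.06 with an adjusted p of 0.0112, and Socs5, an inhibitor of cytokine receptor signalling, one of 0.73 with an adjusted p of 0.0235.

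Of 9 genes that control Il6 transcription or the decay of its mRNA, 2 rose with the block and 0 fell, beside 12.3% and 10.8% of all genes, with a median of 0.13, and none was called at more than a 2-fold change. They were Zfp36, which destabilises AU-rich mRNAs, at 0.59 (adjusted p of 0.0201), and Rc3h1, which encodes a Roquin protein, at 0.41 (adjusted p of 0.0293). Rc3h2, the other Roquin gene, was at -0.21 with an adjusted p of 0.145. Zc3h12a, which encodes the nuclease Regnase that cleaves Il6 mRNA, lay at 5.53, 57.2 and 6.83 CPM in siNC replicates 1 to 3 and at 11.9, 66 and 13.3 CPM in siPKM2 replicates 1 to 3, high in replicate 2 like Il6 itself, with an adjusted p of 0.0522 with the block. Without the block its sign turned from 0.39 to -0.87 when siPKM2 replicate 2 was left out.

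Of 20 known STAT3 target genes, 7 rose with the block and 0 fell, with a median of 0.50, beside 12.3% higher and 10.8% lower over all genes tested; 2 of the 20, Serpina3n and Junb, exceeded a 2-fold change. Serpina3n, a protease inhibitor of the acute phase, lay at 44.7, 126 and 33.3 CPM in siNC replicates 1 to 3 and at 110, 334 and 190 CPM in siPKM2 replicates 1 to 3, a blocked log2 fold change of 1.73 with an adjusted p of 0.0158. Junb, an AP-1 subunit, was at 1.05 (adjusted p of 0.0286), the transcription factor gene Cebpb at 0.99 (adjusted p of 0.0362) and Bcl2l1, which encodes the survival factor BCL-XL, at 0.63 (adjusted p of 0.0132). Il4ra, Fos and Pim1 were the other three that rose, at 0.94, 0.82 and 0.79. Many of these genes also answer to other factors, and none passed without the block. Lcn2 and Saa3, acute-phase genes named here after their values were seen, did not pass with the block. Their replicate 2 levels were 293 and 7277 times the mean of replicates 1 and 3 in siNC, and 168 and 3764 times in siPKM2. The Saa3 ratios rest on few counts, with 5.02 and 17 estimated counts in siNC replicates 1 and 3 and 3 and 30 in siPKM2 replicates 1 and 3.

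All 10 interferon-response genes had unblocked log2 fold changes above 0, as did 7341 of the 15269 genes tested. Their median was 1.46, or 3.36 with the block, beside -0.02 and -0.01 over all genes tested. With the block Ifit1, Mx1 and Cxcl10 passed as higher at an adjusted p under 0.05, beside 12.3% of all genes. These 3 also exceeded a 2-fold change, beside 2.65% of all genes. Isg15, a ubiquitin-like protein induced by interferon, lay at 3.4, 205 and 6.39 CPM in siNC replicates 1 to 3 and at 228, 400 and 123 CPM in siPKM2 replicates 1 to 3. In siNC it was high in replicate 2 and low in replicates 1 and 3, as Il6 was. In siPKM2 its replicate 2 was 2.28 times the mean of replicates 1 and 3, against 13.4 times for Il6. Isg15 had the lowest such siPKM2 ratio of the 10 interferon-response genes, and the ratios of Mx1 and Cxcl10 were 12.2 and 25.4. The blocked log2 fold change of Isg15 was 3.72 ± 1.07 with an adjusted p of 0.0593. The part of the interferon genes in the IL-6 family values was not tested.

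**Figure D4:**
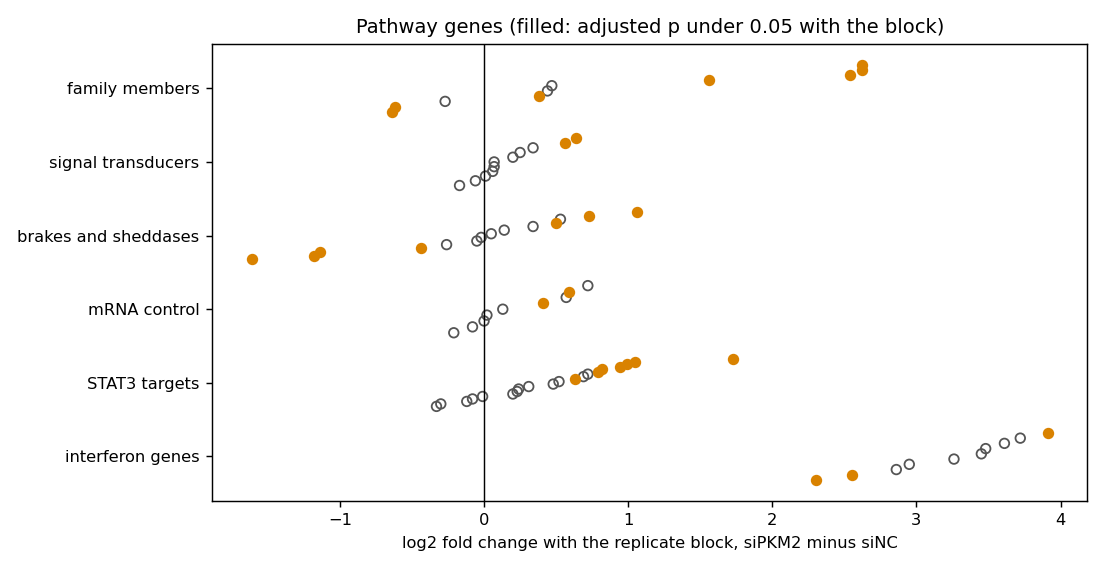
Blocked log2 fold change (siPKM2 minus siNC) of every tested gene of 6 lists; each point is 1 gene, filled where its adjusted p was under 0.05, and the height within a row only separates points by rank. The brakes and sheddases spread to both sides (Adam10 at -1.61, Ptpn1 at 1.06), and 7 of the 20 STAT3 targets are filled, all of those above 0. The interferon genes have the highest median of the 6 lists (3.36), but Cxcl10 (2.30) and Mx1 (2.55) lie left of Il6 and Il6ra (both 2.62).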

How the data were processed

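RNA from 6 libraries (siNC and siPKM2, replicates 1 to 3) was sequenced with Illumina chemistry. The authors deposited estimated counts per gene, some fractional and not normalized, and TPM values scaled within each library. The aligner and counter are not given in the sources used here; the submitters' processing notes name mm9 and edgeR with no role. Gene positions came from GENCODE M21 (GRCm38), which holds 94.0% of the identifiers. The deposited comparison columns hold the authors' fold changes and p-values and were not used.

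Counts were rounded, filtered by filterByExpr (minimum count 10, 15269 genes left), scaled by TMM factors and compared in R 4.3.3 with the quasi-likelihood test of edgeR 4.0.16 and Benjamini-Hochberg adjustment over all genes. The standard errors given for edgeR were worked out from the test, as the absolute log2 fold change divided by the square root of its F statistic. A call needed more than a 2-fold change at an adjusted p under 0.05. Levels are TMM-scaled CPM or deposited TPM. The adjusted p-values reflect the spread between 3 libraries, and genes with few counts, such as Il6 in siNC, are also limited by depth. Scripts were tested on simulated data. No library duplicated another of its group, since 53.6% to 73.7% of genes differed beyond sampling noise.

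Both groups carry replicate numbers 1, 2 and 3 in the titles, whose meaning is not stated. The numbers pair the libraries: deviations of same-numbered libraries from their group means correlated at 0.716, 0.794 and 0.72 across genes, and those of different numbers at 0.217 or below. Values with the number as a block are therefore given beside the unblocked ones.

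Alternatives were the block, RLE factors, DESeq2 1.42.0, limma 3.58.1 on log2(TPM + 0.1), no minimum fold, libraries left out, no low-count filter, and a minimum of 10 counts per library. Leaving out a pair from the blocked fit was chosen after seeing the data. The members and lists were chosen with earlier results of these data known. The lists were counted without 2 genes that are not reported here. The genes named are the 10 members, Pkm, Isg15, up to 4 tested genes of each list with the smallest unadjusted p without the block, and the 5 genes most correlated with Il6 and with Stat3; other genes named were added after their values were seen.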

Additional observations from a re-analysis of the deposited data

How the results depend on the processing

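With 3 libraries per group, the calls depended on the fit used and on which libraries were kept. The unblocked test called 0 genes; 890 were called with the replicate block, 430 with DESeq2, 9 with no filter on low counts, 3 with at least 10 counts in every library and 1 with limma on TPM, and leaving out single libraries gave 0 to 105, the highest without siNC replicate 2. Without replicate 2 the count was 507, or 1639 with the block. Of the 10 IL-6 family genes, 0 were called in the unblocked test, 4 with the replicate block, 1 with DESeq2 and 0 to 1 with single libraries left out; without replicate 2 the number was 3, or 4 with the block. RLE factors and no minimum fold also called 0 of the 10. With the block and replicate 1 or 3 left out, 0 of all genes were called.

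Of the alternative fold changes of the 10 genes, 143 kept direction and side of the threshold, 13 passed in addition and 3 turned sign. Il6 ranged from -0.86 to 6.94 and Lif from -0.41 to 3.47 with single libraries left out, both turning sign without siPKM2 replicate 2, and Lifr was 0.09 with limma on TPM. Outside the 10 genes, with single libraries left out, Ctf1 ranged from -0.03 to 0.26, Clcf1 from -0.31 to 0.19, Zc3h12a from -0.87 to 2.30 and Mx1 from -0.20 to 5.67, and Ctf1 was -0.02 with limma on TPM. The cause was not tested.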
